A study of Mus musculus with 10 samples.

Results

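The 10 genes described here encode chaperones and foldases of the endoplasmic reticulum (ER) that the transcription factors ATF6 and XBP1 are known to induce: Hspa5, Hsp90b1, Dnajb9, Sdf2l1, Pdia4, Pdia6, Creld2, Manf, Hyou1 and Calr. They were picked by symbol from a table of 47340 genes, each symbol stood in 1 row, and all 10 passed the filter on low values that left 13065 genes for testing. The table holds mRNA levels in isolated mouse pancreatic islets, as FPKM (reads scaled by exon length and by a factor for each library). Because FPKM are divided by exon length, levels of different genes can be set side by side.

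The comparison was between FL and KO, each of 5 male mice aged 12 wk and fed chow, with 1 library per mouse. FL mice carried floxed alleles of Fitm2, the gene for the ER protein FIT2 that acts in lipid droplet formation; their samples are titled Flox and their genotype is labelled wild type. KO mice (beta-FIT2KO) carried the same floxed alleles together with Cre recombinase driven by a rat insulin promoter, which within the islet directs expression to β cells. No islets with Cre alone were among the libraries, so effects of the Cre transgene, a line known to carry a human growth hormone sequence as well, and of FIT2 loss cannot be told apart. The islets were kept overnight in culture before RNA was extracted.

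Proteins bound for secretion, insulin precursors among them, fold in the ER with the help of chaperones that hold unfolded chains and of protein disulfide isomerases that form and reshuffle disulfide bonds. When unfolded protein accumulates, ATF6 is cleaved in the Golgi and the RNase IRE1 splices Xbp1 mRNA, and both factors then raise transcription of ER chaperone genes; a separate arm runs from the kinase PERK through ATF4 to CHOP, the product of Ddit3. ATF6 acts with NF-Y at the ER stress response element (ERSE), in which the letters CCAAT and CCACG stand 9 bases apart.

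Of the 10 genes, 8 were found in RefSeq's promoter table for GRCm38.p6, which holds 250 bases before to 50 bases after each start, and 5 of these 8 held the ERSE letters on one strand or the other. The same letters occurred in 39 of all 32851 windows of that length, or 0.119%. These stretches are shown because ATF6, one of the factors that induce these genes, acts at this element. Each runs 5′ to 3′ on the strand of its gene, with 10 bases to either side, and capitals mark the ends of the element, which read CGTGG and ATTGG where it lies on the opposite strand.

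Hspa5, chr2:34772015-34772053, plus strand: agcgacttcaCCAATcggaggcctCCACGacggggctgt
Hsp90b1 (first), chr10:86705628-86705666, minus strand: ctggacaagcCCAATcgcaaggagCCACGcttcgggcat
Hsp90b1 (second), chr10:86705523-86705561, minus strand: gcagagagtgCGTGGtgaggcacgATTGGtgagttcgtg
Pdia6, chr12:17266481-17266519, plus strand: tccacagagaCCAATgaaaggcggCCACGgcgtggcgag
Creld2, chr15:88819510-88819548, plus strand: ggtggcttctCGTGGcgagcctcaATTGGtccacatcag
Calr, chr8:84847065-84847103, minus strand: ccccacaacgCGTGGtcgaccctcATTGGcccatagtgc

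The element lay 65 to 47 bases before the start in Hspa5 and 98 to 80 bases before it in Pdia6. Hsp90b1 held it at 212 to 194 and again, on the opposite strand, at 107 to 89 bases before the start. In Creld2 it lay on the opposite strand at 126 to 108 bases, and in Calr on the opposite strand at 162 to 144 bases. The windows of Dnajb9, Sdf2l1 and Pdia4 did not hold these letters. Neither ERSE-II (ATTGG, 1 base of any kind, CCACG; 12 of all windows, 0.0365%) nor the XBP1-type letters (UPRE, TGACG followed directly by TGG; 222 windows, 0.676%) occurred in the windows of the 8 genes, on either strand. ERSE and ERSE-II share the letters CCACG but differ in the other end and in spacing. A match is a description of letters and not of a bound site. Manf and Hyou1 were not among the windows used.

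The ER chaperones did not move as a group in KO islets. Creld2 rose by 29.6%, Hyou1 fell by 16.6%, Sdf2l1 fell by 12.4%, Manf fell by 8.29%, and the major chaperones Hspa5, Hsp90b1 and Calr, with Dnajb9, Pdia4 and Pdia6, did not pass the test. By limma over all genes tested, with an adjusted p of at most 0.05, 4 of 10 were called, 1 higher and 3 lower. Of all genes tested, 25.5% were called, 9.05% higher and 16.5% lower. FL and KO values did not overlap for 3 of 10, Creld2, Manf and Hyou1, beside 19.1% of all genes. The median log2 fold change of the 10 genes was -0.10, with 6 below 0 and 4 above, and that of all genes was -0.06. After median-ratio, upper-quartile and quantile rescaling the median of the 10 was -0.0554, -0.0545 and -0.0172, and that of all genes -0.0123, -0.0115 and -0.0158. The calls of Creld2 and Hyou1 were kept in every other fit tried, except that neither change reaches 1.5-fold, whereas those of Sdf2l1 and Manf were lost under each of 4 rescalings of the libraries.

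**Figure D1:**
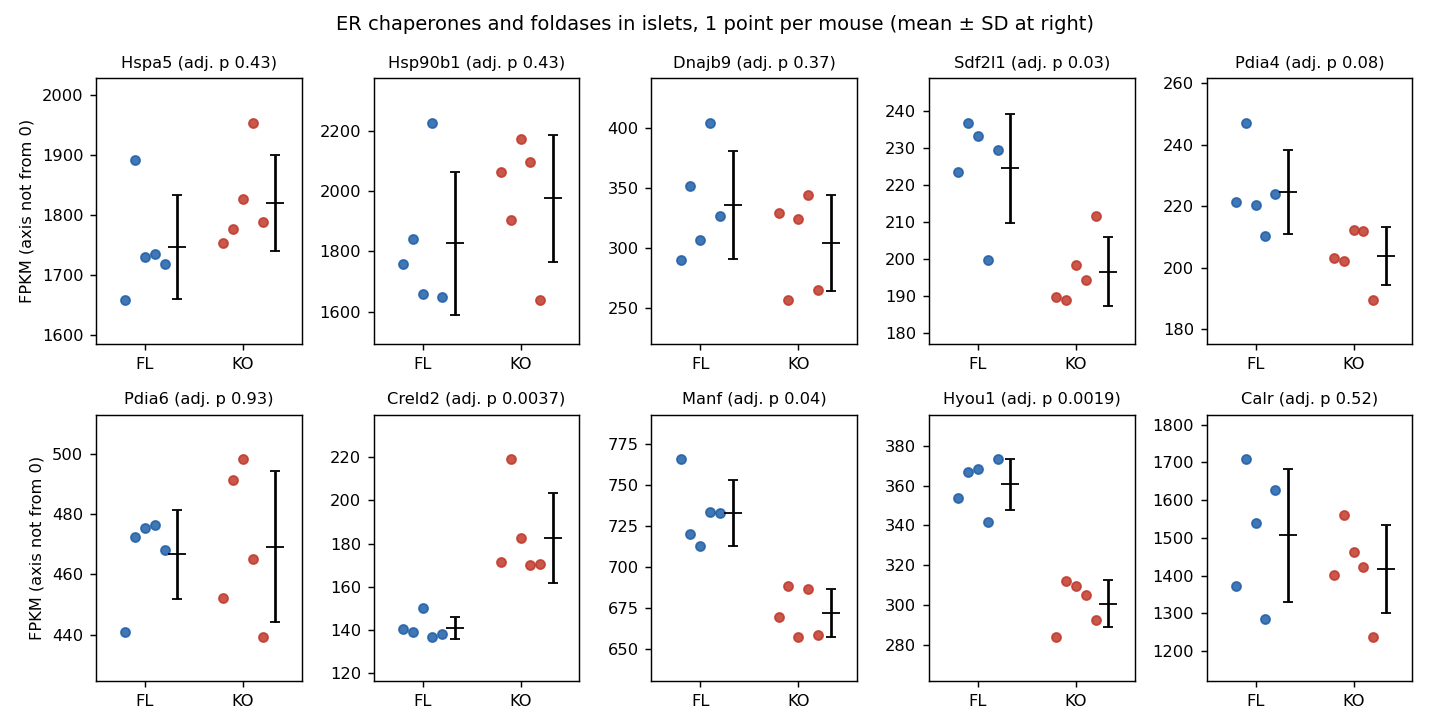
FPKM of the 10 ER chaperone and foldase genes, 1 point per mouse (blue FL, red KO), with the mean and SD of each group at the right of its points and limma's adjusted p above each panel. The vertical axes do not start at 0. FL and KO points are apart in Creld2, which is higher in KO, and in Manf and Hyou1, which are lower, and overlap in the other 7.

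Targeting was visible in the libraries. Fitm2 was 16.9, 30.5, 16.5, 37.1 and 15.5 FPKM in FL mice 1 to 5 and 4.56, 4.30, 7.75, 9.13 and 9.0 FPKM in KO mice 1 to 5. Each KO value was lower than all FL values (log2 fold change -1.58, SE 0.28, limma adjusted p = 0.00228), and transcript remained in whole islets of KO mice. The FPKM sum was 646233 to 675470 in FL and 627084 to 653292 in KO, and relative depth spanned 1 to 2.41 in FL and 1.52 to 2.06 in KO, with FL mouse 1 set to 1. Ins1, Ins2, Iapp and Gcg are listed at 0 in all 10 libraries, so the labelled tissue was checked on other genes: β cell markers G6pc2 (1188 FPKM in FL) and Slc30a8 (303 FPKM) were abundant.

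Together the 10 genes made up 7226 to 7974 FPKM in FL and 6892 to 7850 FPKM in KO, or 1.11 to 1.21% and 1.08 to 1.25% of the FPKM summed over a library. These ranges overlap. The sums hold nothing for the hormone genes listed at 0, so the shares are of the mRNAs that have a value and are not shares of all islet mRNA. In FL the order of mean levels was Hsp90b1, Hspa5, Calr, Manf, Pdia6, Hyou1, Dnajb9, Pdia4, Sdf2l1 and Creld2. The ranges of Hsp90b1 and Hspa5, of Hspa5 and Calr, of Hyou1 and Dnajb9, and of Pdia4 and Sdf2l1 overlapped in FL, and the other neighbours were apart. In KO, Hspa5 and Calr no longer overlapped, Dnajb9 and Hyou1 had changed places with overlapping ranges, and Creld2 overlapped Sdf2l1, from which it was apart in FL.

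Hspa5 encodes BiP, the ER member of the HSP70 family and the chaperone that holds the stress sensors inactive (ENSMUSG00000026864.13, chr2:34771970-34777547, plus strand). Its level was 1659, 1892, 1731, 1736 and 1718 FPKM in FL mice 1 to 5, and 1753, 1776, 1827, 1954 and 1788 FPKM in KO mice 1 to 5. The groups overlapped, with 1 KO mouse above the highest FL mouse. The mean was 1747 ± 86.7 FPKM in FL and 1819 ± 79.6 in KO (SD, n = 5 each), a log2 fold change of 0.06 (SE 0.05, limma adjusted p = 0.434, exact permutation p = 0.214). In bulk islets, fewer cells of a type and less RNA per cell cannot be told apart, which holds for each difference below.

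Hyou1 encodes GRP170, a large HSP70-related protein that acts as nucleotide exchange factor for BiP (ENSMUSG00000032115.13, chr9:44379490-44392369, plus strand). In FL mice 1 to 5 it was 354, 367, 368, 342 and 373 FPKM. In KO mice 1 to 5 it was 284, 312, 309.8, 305 and 293 FPKM. Every KO mouse lay below the lowest FL mouse. The mean fell from 361 ± 12.8 to 301 ± 11.9 FPKM (SD, n = 5 each), 16.6% lower (log2 fold change -0.26, SE 0.04, limma adjusted p = 0.00189). The exact permutation p was 0.00794, the smallest that 5 mice against 5 can give.

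Dnajb9 and Sdf2l1 act with BiP. Dnajb9, or ERdj4, is a J-domain co-chaperone of BiP (ENSMUSG00000014905.3, chr12:44205559-44210326, minus strand). It was 289.8, 352, 307, 405 and 327 FPKM in FL mice 1 to 5, and 329, 257, 325, 344 and 265 FPKM in KO mice 1 to 5. The groups overlapped, with 2 KO mice below the lowest FL mouse (log2 fold change -0.14, SE 0.11, limma adjusted p = 0.368, exact permutation p = 0.254). Leaving out 1 mouse at a time gave Dnajb9 log2 fold changes of -0.19 to -0.07, the smallest without FL mouse 4. With sample weights it was -0.04. Dnajb9 varied more between mice than most of the 10 genes, with a coefficient of variation of 13.3% in FL and 13.2% in KO.

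Sdf2l1 is an ER-resident partner of J-domain co-chaperones (ENSMUSG00000022769.7, chr16:17130138-17132383, minus strand). It was 224, 237, 233, 199.7 and 229.5 FPKM in FL mice 1 to 5, and 189.7, 189, 198, 194 and 212 FPKM in KO mice 1 to 5. In 4 of 5 KO mice it lay below the lowest FL mouse, which was FL mouse 4, and KO mouse 5 overlapped the FL range. The mean fell from 225 ± 14.7 to 197 ± 9.23 FPKM (log2 fold change -0.19, SE 0.06, limma adjusted p = 0.0302; exact permutation p = 0.0159, n = 5 each). Leaving out any of FL mice 1, 2, 3 and 5 or KO mice 1, 2 and 4 ended this call, with adjusted p up to 0.0733.

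Hsp90b1 encodes GRP94, the ER member of the HSP90 family (ENSMUSG00000020048.13, chr10:86690209-86705509, minus strand). It was 1759, 1839.9, 1658, 2226 and 1647 FPKM in FL mice 1 to 5, and 2064, 1905, 2172, 2095 and 1638 FPKM in KO mice 1 to 5. The highest value was in an FL mouse and the lowest in a KO mouse. The log2 fold change was 0.12 (SE 0.10, limma adjusted p = 0.434, exact permutation p = 0.317). Leaving out 1 mouse at a time gave 0.08 to 0.19, the largest without FL mouse 4. It was 0.21 with sample weights (limma adjusted p = 0.0729) and 0.23 after quantile normalization (0.160), without a call. Its gene model overlaps 1810014B01Rik on the other strand and small models on its own, as that of Pdia6 overlaps Atp6v1c2 on the other strand.

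Calr encodes calreticulin, the soluble lectin chaperone that binds glycoproteins and calcium (ENSMUSG00000003814.8, chr8:84841850-84846934, minus strand). It was 1374, 1708, 1539, 1284 and 1628 FPKM in FL mice 1 to 5, and 1402, 1561, 1464, 1424 and 1238 FPKM in KO mice 1 to 5. The groups overlapped, and only KO mouse 5 was below the FL range. The log2 fold change was -0.08 (SE 0.09, limma adjusted p = 0.525, exact permutation p = 0.381), and it was 0.03 after quantile normalization.

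Pdia4 and Pdia6 encode protein disulfide isomerases of the ER. Pdia4 (ENSMUSG00000025823.9, chr6:47796141-47813430, minus strand) was 221, 247, 220.3, 210.3 and 224 FPKM in FL mice 1 to 5, and 203, 202, 212, 212 and 189.6 FPKM in KO mice 1 to 5. In 3 of 5 KO mice it lay below the lowest FL mouse. The mean was 225 ± 13.7 FPKM in FL and 204 ± 9.29 in KO, and the difference missed the threshold (log2 fold change -0.14, SE 0.05, limma adjusted p = 0.0800; exact permutation p = 0.0238, n = 5 each). It passed with sample weights (adjusted p = 0.0482 by limma) and after a correction for GC content and exon length in each library (0.0270). With a replicate block added to that correction it did not pass (0.0749). The log2 fold change was -0.0899 (limma adjusted p = 0.239) after median-ratio, -0.0891 (0.243) after upper-quartile, -0.0651 (0.433) after quantile and -0.0948 (0.267) after TPM rescaling.

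Pdia6 (ENSMUSG00000020571.12, chr12:17266545-17284770, plus strand) was 441, 472, 475, 476 and 468 FPKM in FL mice 1 to 5, and 452, 491, 498, 465 and 439 FPKM in KO mice 1 to 5. The FL range lay wholly inside the KO range. The means were 467 ± 14.8 and 469 ± 25.1 FPKM, and the log2 fold change of 0.01 (SE 0.05, limma adjusted p = 0.933, exact permutation p = 0.889) turned to -0.03 after the GC and length correction. Of the 10 genes Pdia6 had the smallest difference between the groups.

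Creld2 and Manf encode ER stress-inducible proteins that can also be secreted. Creld2 (ENSMUSG00000023272.3, chr15:88819646-88826683, plus strand) has been described as a disulfide isomerase. It was 140.5, 139, 150.0, 137 and 138 FPKM in FL mice 1 to 5. In KO mice 1 to 5 it was 172, 219, 182, 170.0 and 170.3 FPKM. Every KO mouse was above the highest FL mouse, and KO mouse 2 stood above the other 4 KO mice. The mean rose from 141 ± 5.23 to 183 ± 20.9 FPKM (SD, n = 5 each), 1.30 times the FL mean (log2 fold change 0.37, SE 0.07, limma adjusted p = 0.00375). The exact permutation p was 0.00794, the smallest possible here. Without KO mouse 2 the log2 fold change was 0.30, with a limma adjusted p of 0.00111.

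The 250 bases before the start of Creld2, the only one of the 10 genes called higher, are printed from RefSeq (GRCm38.p6, chr15:88819396-88819645, plus strand), with the ends of the ERSE letters in capitals.

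Creld2 upstream: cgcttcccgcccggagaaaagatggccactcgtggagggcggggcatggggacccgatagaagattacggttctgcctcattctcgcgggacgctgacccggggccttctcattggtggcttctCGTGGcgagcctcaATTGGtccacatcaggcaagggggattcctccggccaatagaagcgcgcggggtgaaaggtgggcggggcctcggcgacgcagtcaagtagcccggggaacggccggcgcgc

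Manf encodes a secreted neurotrophic factor retained in the ER while calcium is replete (ENSMUSG00000032575.16, chr9:106838312-106891979, minus strand). It was 765, 719.9, 713, 734 and 733 FPKM in FL mice 1 to 5, and 669, 688, 658, 687 and 659 FPKM in KO mice 1 to 5. Every KO mouse lay below the lowest FL mouse, and the mean fell by 8.29% (733 ± 20.2 and 672 ± 14.7 FPKM, n = 5 each). The log2 fold change was -0.12 (SE 0.04, limma adjusted p = 0.0404, exact permutation p = 0.00794). Leaving out any mouse but KO mouse 2 ended the call, with adjusted p up to 0.0898. The gene model of Manf overlaps Rbm15b on its own strand and Dcaf1 on the other, and how the authors' counting shared reads between them is not given in the sources used here.

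**Figure D2:**
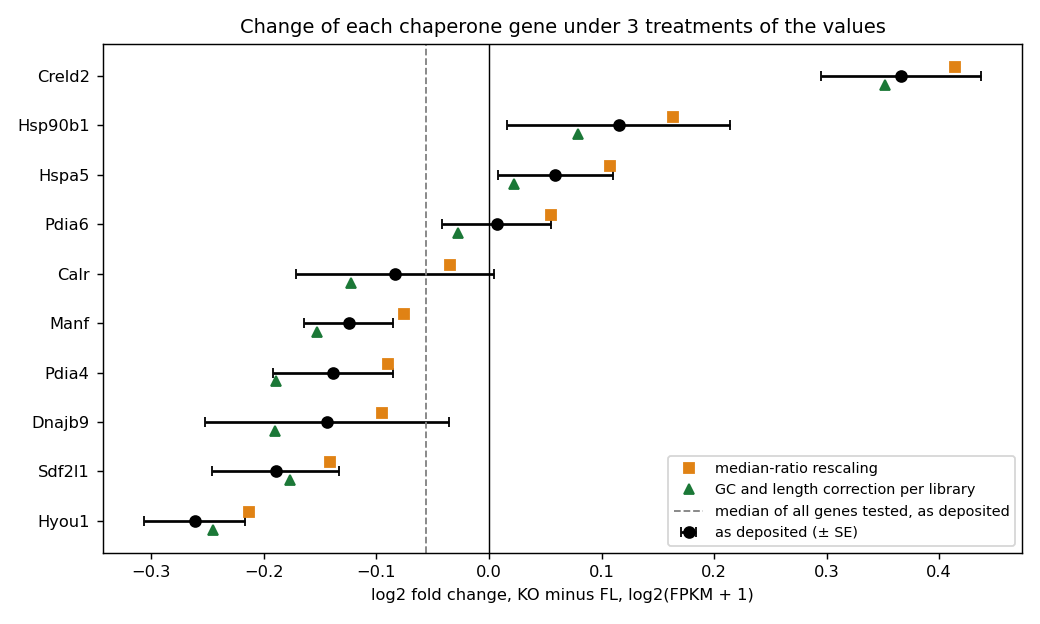
Log2 fold change of each gene, KO minus FL, on the log2(FPKM + 1) scale: black points with SE as deposited, orange squares after median-ratio rescaling, green triangles after the GC and length correction, and the dashed line for the median of all genes tested (-0.06). Creld2 lies to the right of 0 and Hyou1, Sdf2l1, Dnajb9, Pdia4 and Manf to the left of it under all 3, while Pdia6 changes sign with the GC correction.

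Ratios between genes of 1 library do not depend on how libraries are scaled, so 9 of the genes were also expressed relative to Hspa5. Per FPKM of Hspa5, Creld2 was 0.0735 to 0.0867 in FL and 0.0870 to 0.123 in KO, a log2 difference of 0.31. Hyou1 was 0.194 to 0.217 in FL and 0.156 to 0.176 in KO, a log2 difference of -0.32. Pdia4 was 0.121 to 0.133 in FL and 0.106 to 0.116 in KO, a log2 difference of -0.20. In these 3 ratios the groups did not overlap, each with an exact permutation p of 0.00794. Relative to Hspa5, Sdf2l1 was lower by a log2 difference of -0.25 (exact permutation p = 0.0159) and Manf by -0.18 (0.0238). The ratios of Hsp90b1 (0.06, exact permutation p = 0.619), Dnajb9 (-0.20, 0.127), Pdia6 (-0.05, 0.302) and Calr (-0.14, 0.135) did not pass 0.05. These p-values are not adjusted for the 9 ratios.

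With Canx, the membrane lectin chaperone, as the denominator, Creld2 (log2 difference 0.37, exact permutation p = 0.0159) and Hyou1 (-0.26, 0.0238) still passed 0.05. Pdia4 (-0.14, exact permutation p = 0.111), Sdf2l1 (-0.19, 0.127) and Manf (-0.13, 0.254) did not. Relative to Canx, FL and KO overlapped for Creld2 (up to 0.303 in FL, from 0.299 in KO). They overlapped for Hyou1 as well (from 0.597 in FL, up to 0.625 in KO). The ratio of Creld2 to Hyou1 was 0.370 to 0.407 in FL (median 0.397) and 0.557 to 0.701 in KO (median 0.589), a log2 difference of 0.63. Since both genes were singled out after their values were seen, this ratio is given without a test.

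**Figure D3:**
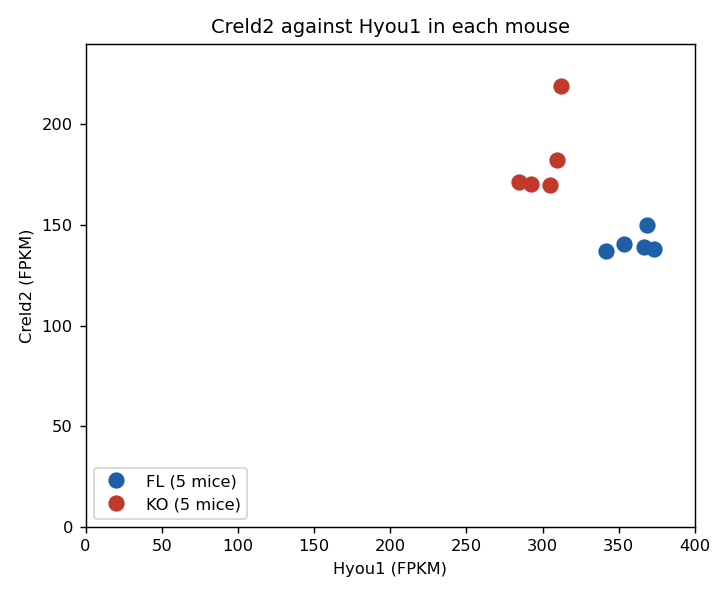
Creld2 against Hyou1 in FPKM, 1 point per mouse, FL in blue and KO in red, with both axes from 0. KO mice lie above and to the left of FL mice, at 0.557 to 0.701 FPKM of Creld2 per FPKM of Hyou1 against 0.370 to 0.407 in FL.

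Part of the spread between mice moved with a property of the libraries. For each library, each gene's deviation in log2 level from its mean over the 10 libraries was regressed on transcript GC content, with exon length in the fit. A negative or positive slope is therefore relative to the average of these 10 libraries. The slope on GC ran from -0.086 to 0.064 per 10 points of GC. It was negative in 4 libraries, FL mouse 4 and KO mice 1, 3 and 4, and positive in 6. Hsp90b1 (transcript GC 42.1%) was 2064 to 2226 FPKM in the 4 and 1638 to 1905 FPKM in the 6, whatever the genotype. With the mean of each group removed, the correlation with the GC slope over 10 libraries was -0.88 for Hsp90b1 and -0.88 for Dnajb9 (GC 40.6%), and 0.49 for Sdf2l1 (GC 56.7%) and 0.47 for Creld2 (GC 54.8%). The points share library and depth, and these values are a description.

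Within the 4 libraries of negative slope and the 6 of positive slope, the KO minus FL difference in log2 was 0.35 and 0.44 for Creld2, -0.19 and -0.27 for Hyou1, and -0.13 and -0.12 for Manf. For Sdf2l1 it was -0.04 and -0.21, and for Pdia4 -0.01 and -0.22. The first set holds a single FL mouse, so these values have no test. Dnajb9 was lower in KO by a log2 difference of -0.28 in both sets, and Hsp90b1 differed by -0.08 and 0.04. What part of the differences in Sdf2l1 and Pdia4 goes with the GC slope was not tested beyond these values and the GC and length correction, under which Sdf2l1 remained called.

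**Figure D4:**
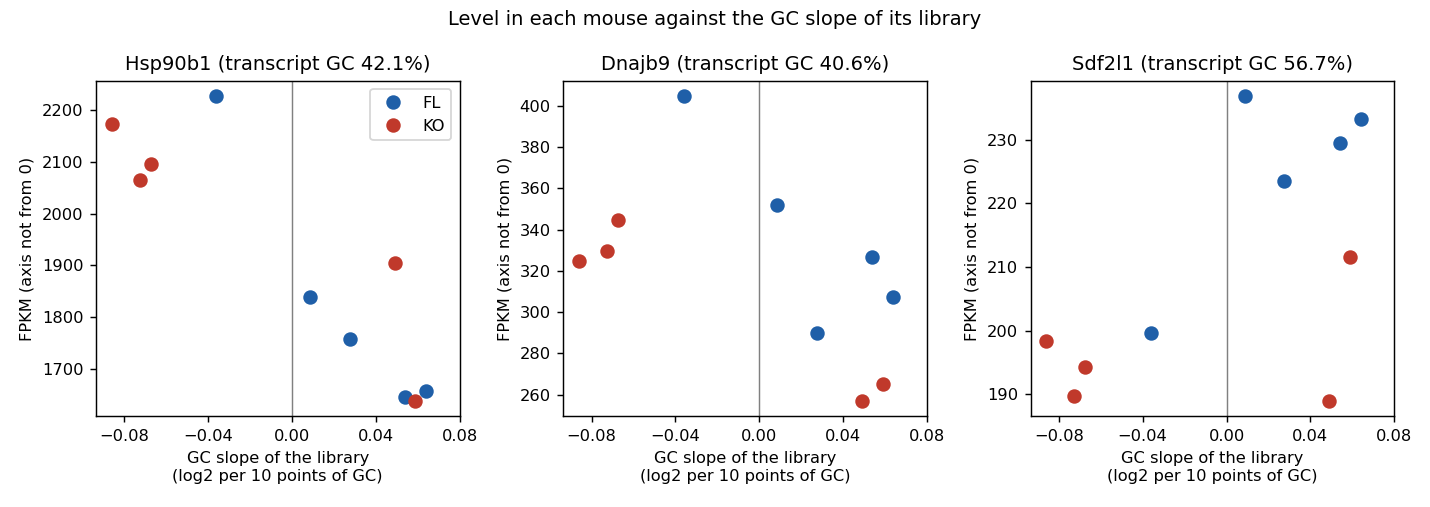
FPKM of Hsp90b1, Dnajb9 and Sdf2l1 in each mouse against the GC slope of its library (log2 per 10 points of GC), FL in blue and KO in red, with vertical axes not from 0. Hsp90b1 is at 2064 FPKM or more in the 4 libraries left of 0 and at 1905 FPKM or less in the 6 right of it. Sdf2l1 is at most 199.7 FPKM in the 4, of which 3 are KO, and spans 188.9 to 236.8 FPKM in the 6, so it does not divide at 0.

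Other genes of ER folding were read from lists of related genes. Of 25 further ER chaperones, co-chaperones and foldases, 5 were called higher (9.05% of all genes), 1 lower and 19 were not called, with a median log2 fold change of 0.05. Canx was 549 ± 70.8 FPKM in FL and 547 ± 44.5 in KO (limma adjusted p = 0.997). The 5 called higher included Fkbp11, a prolyl isomerase of the secretory pathway (37.1 ± 3.76 to 51.7 ± 5.82 FPKM, log2 fold change 0.47, limma adjusted p = 0.00344), Erp29 (0.24) and Sdf2 (0.17), the paralogue of Sdf2l1. Sil1, which like Hyou1 exchanges nucleotide on BiP, was called higher (78.2 to 88.3 FPKM, log2 fold change 0.17, limma adjusted p = 0.0324), and Txndc5 was called lower (-0.12, 0.0470). The count called higher was 3 without FL mouse 1, 2 or 5 or KO mouse 1 or 4, and 2 with the replicate block, alone or with the GC and length correction. It was 6 after median-ratio, upper-quartile or quantile rescaling and 7 with sample weights. The call of Txndc5 was lost with a pseudocount of 0.1, a minimum of 5 FPKM, eBayes without trend or robust eBayes, under all 4 rescalings, with the replicate block alone or with the GC and length correction, and without any 1 mouse except KO mouse 2 or 3. These names other than Canx were chosen after their values were seen.

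The genes of the factors that induce these chaperones did not pass the test. Atf6 was 44.8 ± 1.51 FPKM in FL and 45.1 ± 3.38 in KO (limma adjusted p = 0.946). Xbp1 was 239 ± 16.2 and 254 ± 6.14 FPKM (limma adjusted p = 0.244), and Ern1, which encodes IRE1, was 86.1 ± 4.21 and 91.6 ± 6.72 FPKM (limma adjusted p = 0.315). Gene-level FPKM do not separate spliced from unspliced Xbp1, nor cleaved from whole ATF6. Of 14 sensors, proteases and transcription factors of the unfolded protein response, 2 were called higher, 1 lower and 11 were not called, with a median of -0.02; the count called lower was 0 after TPM rescaling, 2 after the GC and length correction and without FL mouse 4 or KO mouse 2, and 3 with sample weights.

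The genes called higher in that list were Ddit3 and Creb3, and through which branch they rose was not tested. The CHOP gene Ddit3 was 381 ± 48.5 FPKM in FL and rose to 638 ± 52.1 FPKM in KO (log2 fold change 0.75, limma adjusted p = 0.000163), with no overlap between groups. Creb3, a factor cleaved in the Golgi as ATF6 is, rose from 149 ± 17.7 to 232 ± 17.6 FPKM (log2 fold change 0.64, limma adjusted p = 0.000381). Eif2ak3, which encodes PERK, was 37.3 ± 5.62 and 41.9 ± 3.60 FPKM (limma adjusted p = 0.234), and Atf4 was 462 ± 15.5 and 448 ± 14.4 FPKM (limma adjusted p = 0.496). Of 12 targets of the PERK and ATF4 arm, 2 were called higher, 3 lower and 7 were not called, with a median of -0.10; the count called higher was 1 with the replicate block, alone or with the GC and length correction, under both other filters on low FPKM and without FL mouse 3, 4 or 5 or KO mouse 1, 4 or 5, and 3 under the 4 rescalings.

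Among 10 genes of ER-associated degradation, another group that ATF6 and XBP1 induce, 2 were called higher, 1 lower and 7 were not called, with a median of 0.12; 4 were called higher after TPM rescaling and 6 under the other 3 rescalings. Derl3, a Derlin of the retrotranslocation machinery, was 6.97 to 12.4 FPKM in FL and 30.8 to 39.4 FPKM in KO. Its log2 fold change of 1.76 (SE 0.13, limma adjusted p = 5.23e-06) was larger than that of each of the 10 chaperones. Edem2 was called higher (log2 fold change 0.32) and Derl2 lower (-0.32), both named after their values were seen.

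Chaperones outside the ER were counted for comparison. Of 15 cytosolic heat shock chaperones, 3 were called higher, 2 lower and 10 were not called, with a median of -0.04. The count called lower was 0 under all 4 rescalings, with the replicate block, and without FL mouse 2, 3 or 4 or KO mouse 1, 4 or 5. It was 1 without a filter on low FPKM, with eBayes without trend, without FL mouse 5 and with the block and the GC and length correction together, and 4 without KO mouse 2 or with sample weights; the count called higher was 5 after median-ratio or upper-quartile rescaling. Hsph1, a nucleotide exchange factor of cytosolic HSP70, rose from 94.2 ± 5.14 to 163 ± 26.1 FPKM (log2 fold change 0.77, limma adjusted p = 0.000205). Hspa1a (2.82 to 6.35 FPKM, log2 fold change 0.94) and Hspa1b (2.5 to 5.74 FPKM, 0.93) were called higher too, but they are near-identical copies whose reads may have been split between them. Of 8 mitochondrial chaperones and proteases, 3 were called lower and 5 were not called, with a median of -0.14. After the GC and length correction 5 were called lower, and with sample weights 4. The count was 2 under all 4 rescalings and with the replicate block, alone or with the GC and length correction. It was also 2 without FL mouse 3, 4 or 5 or KO mouse 3, 4 or 5.

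**Figure D5:**
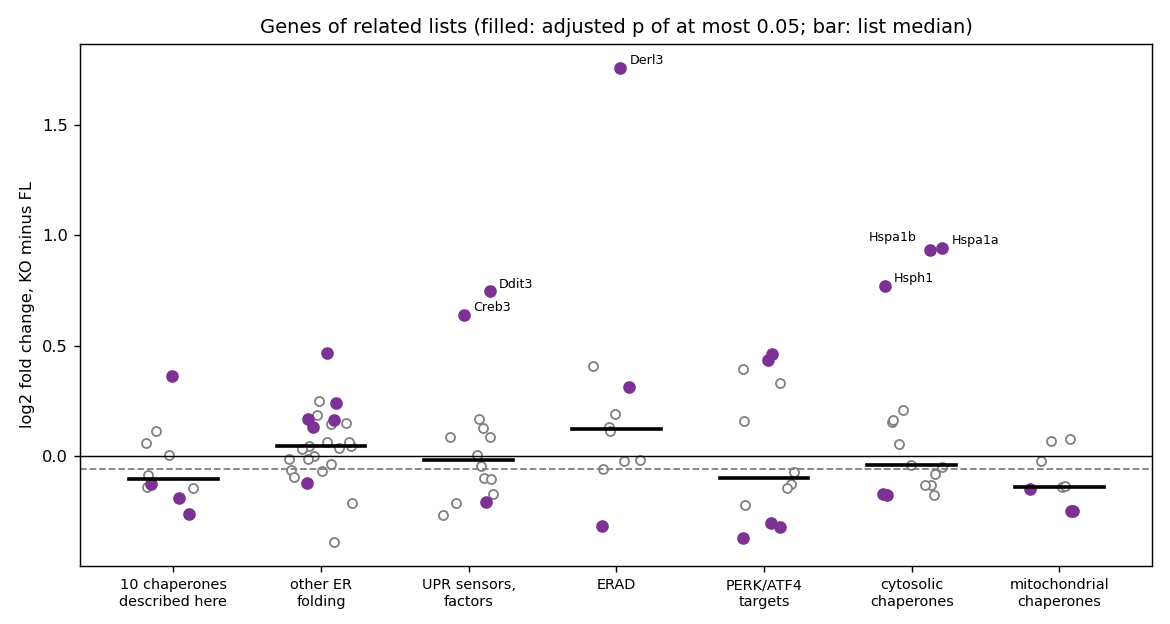
Log2 fold change, KO minus FL, of the 10 ER chaperone genes and of 6 lists of related genes; 1 point per gene, filled where limma's adjusted p is at most 0.05, with a bar at the median of each list and a dashed line at the median of all genes tested. The 10 genes lie between -0.26 and 0.37, while Derl3 lies at 1.76.

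Among markers of islet endocrine cells, most β cell markers were lower in KO. Of 7 β cell markers tested, 6 were called lower, with a summed level of 2273 to 2844 FPKM in FL and 1511 to 2124 FPKM in KO; G6pc2, the most abundant, was 1188 ± 145 and 998 ± 171 FPKM (limma adjusted p = 0.136) and was the 1 not called. The largest fall among them was that of Mafa, a transcription factor of mature β cells, from 253 ± 44.4 to 113 ± 39.1 FPKM (log2 fold change -1.21, limma adjusted p = 0.00372), and the 6 called had log2 fold changes of -1.21 to -0.47. Of 6 α cell markers, 2 were called lower (summed 439 to 656 FPKM in FL and 294 to 434 in KO), Ttr being the most abundant at 491 and 335 FPKM. Of 5 δ and PP cell markers, led by Ppy, 1 was called lower (summed 10825 to 26724 FPKM in FL and 16536 to 22674 in KO). These changes stand beside the falls of Hyou1, Sdf2l1 and Manf, and their part in them was not tested.

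Non-endocrine markers are given for the same reason, beside the rise of Creld2. Fibroblast and stellate cell markers were called higher in 5 of 5 (summed 11.7 to 20.1 FPKM in FL and 24.1 to 32.7 in KO), with Col3a1 at 6.02 and 11.5 FPKM. Endothelial markers, led by Plvap, were called higher in 3 of 5 (121 to 139 and 144 to 189.5 FPKM), and macrophage markers in 2 of 5 (116 to 142 and 167 to 203 FPKM). The macrophage markers called were Lyz2 (25.7 to 48.3 FPKM, log2 fold change 0.90) and Cd68 (22.8 to 37.1 FPKM, 0.68), while the most abundant, C1qa, was not called (limma adjusted p = 0.0550). Of 4 duct markers tested (summed 167 to 207 and 147 to 317 FPKM over the list), 1 was called higher, Cftr. Its mean was 0.0372 FPKM for FL and 2.13 FPKM for KO (log2 fold change 1.59 on the log2(FPKM + 1) scale). Cftr passed the filter on low FPKM only through its KO mean. A gene so low in FL could enter only if higher in KO, so no test result is read from its call. Spp1, the most abundant, was 145 and 203 FPKM (limma adjusted p = 0.116), Krt19 was 30.9 and 29.8 FPKM and Muc1 5.56 and 5.91 FPKM, none of them called. Mafa, Slc30a8, Lyz2, Cd68, Cftr, Krt19 and Muc1 were named after their values were seen. None of 11 acinar markers was called by limma, nor had any an unadjusted p under 0.05; their sum, led by Ctrb1, was 4559 to 12185 FPKM in FL and 3044 to 22334 in KO, with KO mouse 5 highest. The 4 plasma cell markers, which mark another secretory cell type, summed to at most 2.32 FPKM in every library, Igkc being the most abundant and Tnfrsf17 listed at 0, and none passed the filter. What part these markers have in the rise of Creld2 was not tested.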

How the data were processed

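The authors deposited 1 table of FPKM per gene for 5 FL and 5 KO mice. It was made from polyA, stranded, single-end reads with STAR 2.5.2a and Cuffnorm 2.2.1 (mm10, GRCm38, per the submitters' processing notes). The gene annotation and the way libraries were scaled are not given in the sources used here. FPKM hold no read numbers, so no counting error was computed, and depth relative to FL mouse 1 was read from the step between low values. Coordinates, overlaps, exon length and GC content came from GENCODE release M21, matched by identifier (6 of 10 with the same version).

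The test of KO against FL was limma's (version 3.58.1, R 4.3.3; lmFit, then eBayes with trend), two-sided, on log2(FPKM + 1). It ran over 13065 genes whose FL or KO mean reached 1 FPKM, with Benjamini-Hochberg adjustment over all of them and a threshold of 0.05. Fold changes on this scale understate changes of low genes. For single genes and ratios an exact permutation test, two-sided, was used (252 arrangements). Summaries used Python 3.11.15, pandas 2.3.3 and numpy 2.4.6, figures matplotlib 3.10.9. The procedure was tested on simulated data.

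The 10 genes, the lists and the tests were chosen with earlier results of these data known. Genes named were the 10, Fitm2, Atf6, Xbp1, Ern1, Eif2ak3, Atf4 and Ddit3, and the most abundant gene of each marker list. Called genes with a log2 fold change of at least 0.5 in size were named too (up to 5 a list). This holds for the lists of related genes, not the marker lists. The 5 genes with the highest correlation with the mean of the 10 across mice were also named. Others are marked where named. Replicate numbers come from the titles. With group means removed, FL and KO samples of the same number had correlations of -0.10 to 0.003 across genes, so the numbers were not taken as pairs. Alternatives were another pseudocount (0.1), other filters, 4 rescalings, other eBayes settings, sample weights, a 1.5-fold minimum, a replicate block and leaving out each mouse; the GC and length correction and the sets of libraries by GC slope were added after seeing the data.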

Additional observations from a re-analysis of the deposited data

Results flagged for a closer look

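Values of the 10 genes, Fitm2 and 6 genes of the stress sensors were looked over for single mice that stand apart, in 34 groups of 5 mice. In 4 groups the gap between the extreme mouse and its nearest neighbour exceeded 0.71 of the whole range; chance gives about 1 in 20, or 1.7 of 34.

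Creld2 was 219 FPKM in KO mouse 2, above the other KO mice at 170.0 to 182 FPKM, and 150.0 FPKM in FL mouse 3, above the other FL mice at 137 to 140.5 FPKM. Both mice were the highest of their group, and every KO mouse stayed above FL mouse 3. Pdia6 was 441 FPKM in FL mouse 1, below the other FL mice at 468 to 476 FPKM. Xbp1 was 264 FPKM in KO mouse 3, above the other KO mice at 248.5 to 252.3 FPKM.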

How the results depend on the processing

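Creld2 (log2 fold change 0.30 to 0.44, adjusted p up to 0.0152 by limma) and Hyou1 (-0.29 to -0.19, adjusted p up to 0.0165) kept their direction in every alternative and their call in every alternative with a test, except that no chaperone was called with a change of at least 1.5-fold as well (0 higher, 0 lower, with 639 genes called in all, 349 higher and 290 lower). Rescaling shifted the median of all genes by at most 0.05 and the split of calls from 1183 higher and 2150 lower to 1547 and 1685 (median ratio), 1536 and 1646 (upper quartile), 1511 and 1704 (quantile) and 1390 and 1530 (TPM). In that order, Sdf2l1 was -0.14 (adjusted p = 0.136), -0.14 (0.123), -0.12 (0.197) and -0.15 (0.113), and Manf -0.0759 (0.202), -0.075 (0.234), -0.11 (0.114) and -0.0808 (0.247), so 1 chaperone was called lower under each; the median of the 10 genes was -0.0554, -0.0545 and -0.0172 under the first 3. Of the related lists, 14 genes were called higher and 11 lower; 22 were called higher under the first 3 rescalings and 7, 7, 7 and 6 lower under the 4, with 17 lower under sample weights. Among the lists this was uneven: degradation genes called higher went from 2 to 4 (TPM) or 6 (the other 3 rescalings), and cytosolic chaperones called lower from 2 to 0 under all 4. Quantile normalization turned Calr to 0.0307. The causes were not tested.

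With the replicate block, 1 chaperone was called lower, with Sdf2l1 at -0.19 (adjusted p = 0.0660) and Manf at -0.12 (0.124), 7 related genes were called lower, and all calls came to 874 higher and 1494 lower; no FL mouse correlated best with the KO mouse of its number. The block together with the GC and length correction left 1 called lower, with Sdf2l1 at -0.18 (0.0640), Manf at -0.15 (0.0566) and Pdia6 at -0.0272. Without a filter on low FPKM Manf was -0.12 (0.121). Pdia4 passed with sample weights (-0.13, 0.0482) and the GC and length correction (-0.19, 0.0270), under which Pdia6 was -0.0092 and -0.0272. In the libraries of negative GC slope the differences were -0.0773 for Hsp90b1, -0.0406 for Sdf2l1, -0.00757 for Pdia4, -0.19 for Hyou1 and 0.15 for Calr, and in those of positive slope -0.22 for Pdia4. Relative to Canx, Sdf2l1 was -0.19, Pdia4 -0.14, Pdia6 0.00622 and Manf -0.13.

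Leaving out 1 mouse at a time gave 2545 to 3427 calls in all (936 to 1130 higher, 1589 to 2367 lower), 1 chaperone higher and 1 to 2 lower, 11 to 15 related genes higher and 7 to 14 lower. It gave -0.23 to -0.17 for Sdf2l1, -0.13 to -0.11 for Manf, -0.0151 to 0.0300 for Pdia6, -0.11 to -0.07 for the median of the 10 genes, and -0.20 to -0.10 for Calr relative to Hspa5, which passed 0.05 without FL mouse 4 (exact permutation p = 0.0397). Depth is known only in relative terms, which limits what can be said of genes of a few FPKM, among them Hspa1a and Hspa1b.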

Other observations

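With the mean of each group removed, some of the 10 genes varied together over the 10 libraries: Hsp90b1 with Dnajb9 (Pearson's r 0.82), Hyou1 with Calr (0.78), Pdia4 with Calr (0.77) and Hspa5 with Pdia4 (0.70), while Hsp90b1 and Sdf2l1 ran opposite (-0.77). Other genes were ranked by their correlation with the mean standardised level of the 10, in the same way over 10 libraries. The highest were Mtmr11 (r 0.94, Spearman's rho 0.83), Tbc1d30 (0.94, 0.95), Slc45a4 (0.91, 0.92), Trip11 (0.91, 0.96) and Snap47 (0.91, 0.87). So wide a search over 10 libraries can give high r by chance, and how high was not tested. The mean also joins genes that ran opposite, such as Dnajb9 and Creld2 (-0.54). No likeness to the 10 genes is therefore read from these r values. These libraries share their differences in depth and base composition, and the values are a description.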
